A study of Homo sapiens with 12 samples.

Results

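The Krüppel-like factors (KLFs) bind DNA through zinc fingers at their carboxyl end, which read CACCC boxes and GC-rich sites, and their varied amino ends recruit activators or repressors. In lymphocytes KLF2 is known for keeping resting cells quiescent and for driving genes of lymphocyte traffic, while other members answer to steroid hormones, to TGF-beta or to fasting. Described here are 10 of the 18 KLF genes in the deposited count table, which lists 78892 genes: KLF2, KLF3, KLF4, KLF6, KLF7, KLF9, KLF10, KLF11, KLF13 and KLF15, all found by symbol. They were chosen with earlier results of these libraries known, and KLF15 for its lower level in the drug groups. KLF15 values against vehicle are therefore a description with no test.

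All 12 libraries are poly(A) RNA of OCI-Ly7, an established human cell line of diffuse large B-cell lymphoma, in 4 groups of 3. The vehicle group received neither drug. The inhibitor group received 15 µM of an HDAC3 inhibitor on days 2 and 4, and HDAC3 is a histone deacetylase that works within corepressor complexes. The 5-azacitidine group received 100 nM of that cytidine analogue, which inhibits DNA methyltransferases, daily from day 0 to day 4. The combination group received both drugs on the same days, and all groups were harvested on day 5. The inhibitor is not named in the labels, 1 cell line was used, and it is not stated if replicates are different cultures, so the tests measure the spread between libraries, which may be technical.

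Each library held 35947872 to 36337086 counts. The share of counts from mitochondrially encoded genes was 9.59% to 10.54% in vehicle, 12.14% to 13.02% with the inhibitor, 10.01% to 13.79% with 5-azacitidine and 12.5% to 15.29% with both. Replicate 1 of 5-azacitidine and replicate 3 of the combination stood above their groups, and results that change without them are named below. Summed B cell markers reached 2718 to 2879 CPM (counts per 1000000 of the scaled library size) in vehicle and 3672 to 3739 CPM with the inhibitor, where 5 of the 6 were called higher. Summed T cell markers, of which 4 of 4 tested were called higher with the inhibitor, went from 84.8 to 97.1 CPM in vehicle to 242 to 250 CPM with the inhibitor and 243 to 259 CPM with both. Summed myeloid markers, with S100A8 at 0, were at 0.327 to 0.497 CPM in vehicle, 1.36 to 2.01 CPM with the inhibitor, 0.136 to 0.380 CPM under 5-azacitidine and 2.63 to 3.28 CPM with both, and 2 of 3 tested, LYZ and CSF1R, were called higher with the inhibitor and with both. Summed fibroblast and epithelial markers, with COL1A2 and KRT18 at 0, went from 0 to 0.164 CPM in vehicle to 2.66 to 3.30 CPM with the inhibitor and 5.15 to 7.34 CPM with both, and the 1 tested, COL1A1, was called higher in both groups. LYZ, CSF1R, COL1A1 and the T cell markers CD3D and CD3G passed the filter on low counts only through the groups with the inhibitor, which fixed their direction. Erythroid markers, none of them tested, were at 0 to 0.0828 CPM in vehicle and 0.138 to 0.220 CPM with the inhibitor, with HBB at 0. The part of these differences in the results below was not tested. Beside the marker calls, 26.4% of all tested genes were called higher with the inhibitor and 29.6% with both drugs. In bulk RNA, fewer cells that make a transcript and less of it per cell cannot be told apart.

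KLF15 and KLF2 differ in the direction of their response, while the bases before both starts are CpG-rich. KLF9 rose with almost no CpG in the bases before its annotated start. The promoters of these 3 members are therefore shown. Each is the 250 bases before the RefSeq start in GRCh38.p14, 5′ to 3′ on the gene's strand. Capitals mark the CACCC box (CACCC or GGGTG), the GC box (GGGCGG or CCGCCC) and the MEF2 pattern (CTA, 4 bases of any kind, TAG), each searched on both strands with overlaps kept. KLF15 lies at chr3:126357409-126357658 (minus strand), KLF2 at chr19:16324576-16324825 (plus strand) and KLF9 at chr9:70414658-70414907 (minus strand).
KLF15: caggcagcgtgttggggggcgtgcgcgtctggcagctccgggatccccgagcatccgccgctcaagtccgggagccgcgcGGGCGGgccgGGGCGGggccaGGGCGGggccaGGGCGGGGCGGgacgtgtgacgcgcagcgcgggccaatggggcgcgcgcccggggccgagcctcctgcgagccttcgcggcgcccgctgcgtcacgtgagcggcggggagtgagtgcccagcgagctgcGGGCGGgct
KLF2: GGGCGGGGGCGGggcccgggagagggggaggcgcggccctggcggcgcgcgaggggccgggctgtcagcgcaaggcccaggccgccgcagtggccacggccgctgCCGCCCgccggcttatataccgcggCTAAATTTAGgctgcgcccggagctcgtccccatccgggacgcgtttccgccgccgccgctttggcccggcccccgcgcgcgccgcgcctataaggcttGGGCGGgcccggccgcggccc
KLF9: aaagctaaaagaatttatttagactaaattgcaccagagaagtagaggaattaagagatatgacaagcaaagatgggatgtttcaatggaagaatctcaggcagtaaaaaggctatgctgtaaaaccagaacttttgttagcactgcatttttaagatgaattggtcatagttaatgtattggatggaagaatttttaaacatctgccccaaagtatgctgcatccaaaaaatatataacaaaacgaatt

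The KLF15 window held 40 CpG and 6 GC boxes, and the KLF2 window 41 CpG, 4 GC boxes and 1 match to the MEF2 pattern that begins at position -120 from the start. The KLF9 window held 1 CpG, 32.4% G and C, and none of the 3 motifs. Among windows not shown, that of KLF13, called higher with the inhibitor, held 34 CpG. That of KLF6, called lower with both drugs, held 28. Of the 35116 RefSeq windows of this length, 42.6% held a GC box, 54.7% a CACCC box and 2.36% the MEF2 pattern, and the median window held 11 CpG and 58.0% G and C. A FOXO pattern (TGTTTAC or GTAAACA), held by 2.98% of these windows, was also searched. It had no match in any member window read, that of KLF2 included. KLF11, whose transcript fell with the inhibitor, has 2 starts, with 43 CpG and 2 GC boxes before the first. Before the other stood 34 CpG, 6 GC boxes, 1 CACCC box and 1 match to the MEF2 pattern. The 4 free bases of that match are GCGG, while those of the KLF2 match are AATT. The 250-base windows were read for 8 of the 10 members. KLF3 had no window to read. Member windows on chromosome 8, where KLF10 lies, were left out, so KLF10 was not read. A match is a description of letters, since neither methylation nor binding was measured here.

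KLF2, the regulator of lymphocyte quiescence and traffic (ENSG00000127528, chromosome 19, 16324826 to 16328685, plus strand, GRCh38), rose in all 3 drug groups. In replicates 1, 2 and 3 its level was 4.72, 3.54 and 3.92 CPM in vehicle, 18.8, 19.3 and 19.6 CPM with the inhibitor, 6.51, 5.87 and 5.61 CPM under 5-azacitidine, and 24.4, 21.8 and 20.8 CPM with both drugs. The 4 groups did not overlap. Against vehicle the mean was 4.74-fold higher with the inhibitor (log2 difference 2.24 ± 0.10 SE, edgeR adjusted p = 7.84e-16), 1.48-fold higher with 5-azacitidine (0.56 ± 0.12, adjusted p = 0.00196) and 5.50-fold higher with both (2.46 ± 0.10, adjusted p = 5.32e-17). Each of these calls was made in 25 of 25 alternative settings. Adding the inhibitor to 5-azacitidine raised KLF2 by 1.90 ± 0.10 (adjusted p = 6.79e-15), whereas adding 5-azacitidine to the inhibitor gave 0.21 ± 0.09, which did not pass (adjusted p = 0.151) although the libraries did not overlap. Of its exonic bases, 4.08% are shared with the antisense transcript KLF2-DT, which had at most 9 counts in any library.

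**Figure D1:**
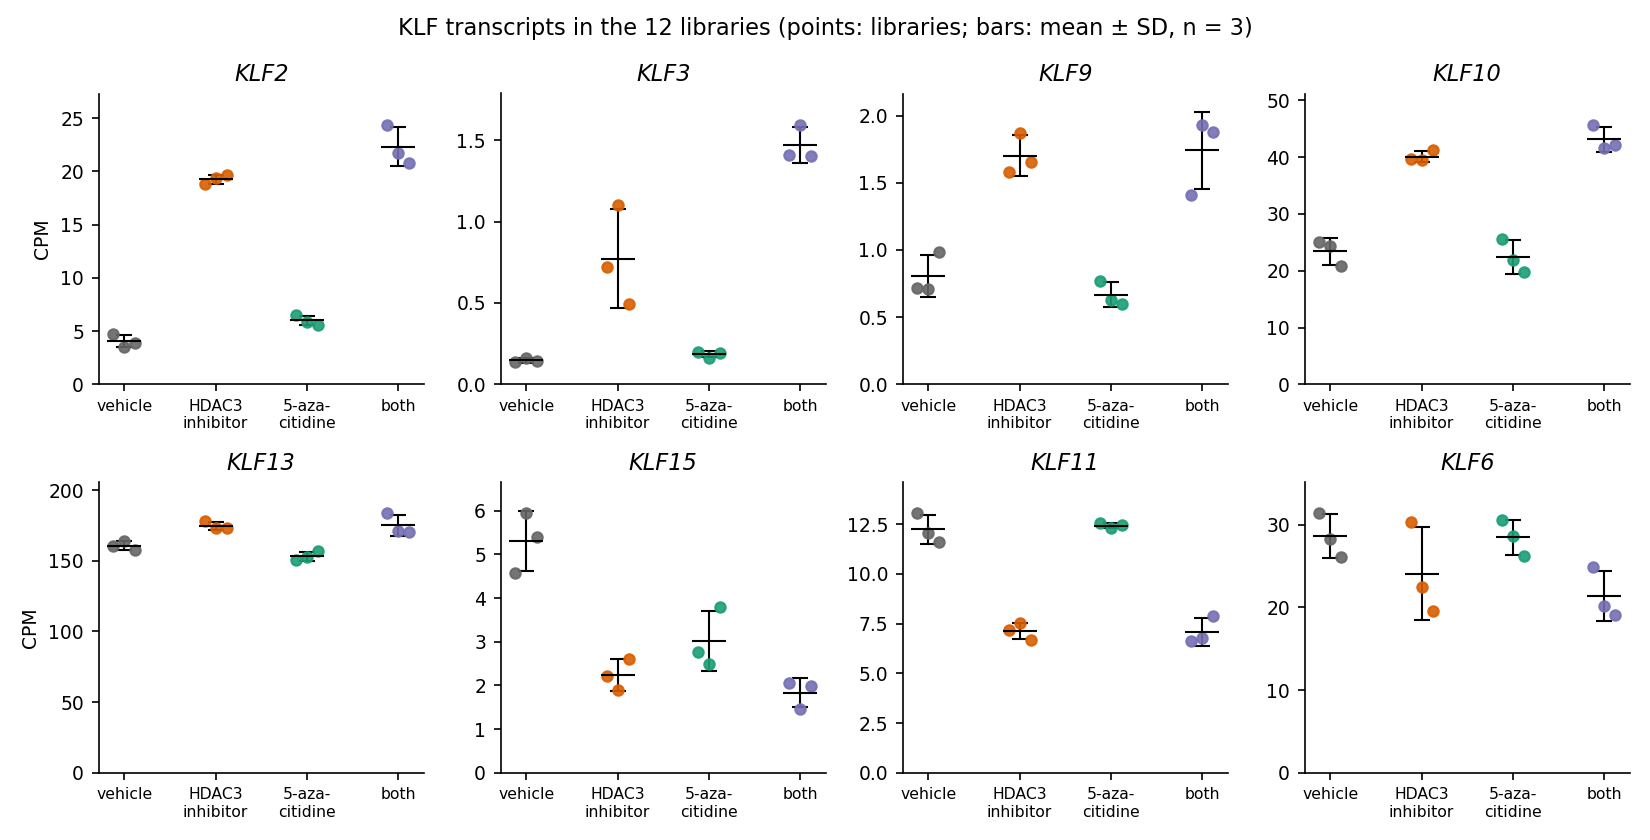
CPM (vertical axes, from 0) of the 8 members that passed the filter, in 3 libraries of each group (points), with the mean and SD as bars. KLF2 separates all 4 groups, KLF10 stands near 40 CPM with the inhibitor against 20.8 to 25.1 CPM in vehicle, and KLF15 is highest in the 3 vehicle libraries.

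Of all tested genes, 26.4% were called higher and 24.9% lower with the inhibitor. These shares were 4.31% and 4.75% with 5-azacitidine and 29.6% and 27.5% with both drugs. They stand beside the counts over this and later gene lists. Genes around KLF2 moved as follows. FOXO1 and FOXO3, forkhead factors that activate KLF2 in lymphocytes, both rose with the inhibitor, FOXO3 by 1.01 ± 0.07 in log2 terms (adjusted p = 6.73e-12) and FOXO1 by 0.58 ± 0.06 (adjusted p = 1.69e-08). Of the 8 listed genes upstream of KLF2 and KLF4, 4 rose and 2 fell with the inhibitor (median 0.19), 1 rose and 1 fell with 5-azacitidine (median -0.05), and 4 rose and 3 fell with both (median 0.14). With 5-azacitidine these were FOXO1, which rose by 0.29 ± 0.06 (adjusted p = 0.00315), and MAPK7, the kinase ERK5, at -0.29 ± 0.09 (adjusted p = 0.0343). The MAPK7 call was kept in 19 of 25 settings and lost without any one vehicle library or 5-azacitidine replicate 2 or 3 (adjusted p from 0.0579 to 0.157).

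The 4 listed lymphocyte homing genes known to lie under KLF2 in lymphocytes all rose with the inhibitor and with both drugs. CCR7, the chemokine receptor for lymph node entry, went from 10 to 19 counts in vehicle to 263 to 302 counts with the inhibitor (log2 difference 4.28 ± 0.21, adjusted p = 1.61e-15). S1PR1, the receptor for exit from lymphoid organs, passed the filter only through the groups with the inhibitor, so that its direction in these counts was fixed. It had 0 counts in the 3 vehicle libraries and 29 to 38 counts with the inhibitor, at least 10.7-fold higher when each vehicle library is set to the floor of 3 counts. The list median, with S1PR1 at that bound, was 3.80 with the inhibitor and 4.15 with both drugs. ITGB7, an integrin subunit of gut homing, rose by 0.23 ± 0.05 with the inhibitor (adjusted p = 0.000656) and by 0.13 ± 0.05 with both drugs (adjusted p = 0.0319), the latter call being lost without vehicle replicate 2 or 3 or combination replicate 1 (adjusted p from 0.0716 to 0.164). With 5-azacitidine ITGB7 fell by 0.18 in log2 terms (adjusted p = 0.0286) and 0 of the 4 genes rose by edgeR, DESeq2 or limma-voom, though 3 were higher at an unadjusted edgeR p under 0.05. The last ITGB7 call was kept in 17 of 25 settings. Without vehicle replicate 1, vehicle replicate 3 or any one of the 5-azacitidine libraries, its adjusted p was 0.0564 to 0.165.

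KLF3, a repressor that recruits CtBP and is known in mature B cell subsets (ENSG00000109787, chromosome 4, 38664197 to 38701517, plus strand), was close to the detection floor without the inhibitor. It had 5, 6 and 5 counts in vehicle (0.14, 0.16 and 0.14 CPM) and 7, 6 and 7 counts with 5-azacitidine. With the inhibitor it had 26, 40 and 18 counts (0.72, 1.10 and 0.50 CPM), and with both drugs 52, 57 and 50 counts (1.41, 1.60 and 1.40 CPM). The groups with and without the inhibitor did not overlap, and KLF3 passed the filter on low counts only through the former, so that a difference was a condition of its being tested. The log2 difference was 2.36 ± 0.41 with the inhibitor (adjusted p = 1.87e-05) and 3.28 ± 0.38 with both (adjusted p = 2.58e-08). KLF3 was also higher with both drugs than with the inhibitor alone, by 0.93 ± 0.29 at the edge of the threshold (adjusted p = 0.0497). That call was kept in 6 of 24 settings, with adjusted p from 0.0175 to 0.248, and leaving out any library except HDAC3 inhibitor replicate 2 or 5-azacitidine replicate 1 ended it.

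KLF9, a factor induced by glucocorticoids and thyroid hormone (ENSG00000119138, chromosome 9, 70384604 to 70414657, minus strand), was low throughout and rose with the inhibitor. Its levels were 0.72, 0.71 and 0.99 CPM in vehicle, 1.58, 1.87 and 1.65 CPM with the inhibitor, 0.77, 0.63 and 0.60 CPM under 5-azacitidine and 1.41, 1.93 and 1.88 CPM with both. The highest vehicle library lay under the lowest inhibitor library, while vehicle and 5-azacitidine overlapped. The mean was 2.11-fold higher with the inhibitor (1.08 ± 0.24, adjusted p = 0.000404) and 2.16-fold higher with both drugs (1.11 ± 0.24, adjusted p = 0.000230). With 5-azacitidine the difference was -0.27 ± 0.27 (adjusted p = 0.614). KLF9 shares 12.5% of its exonic bases with an antisense gene that had at most 3 counts.

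Of the listed glucocorticoid receptor and target genes, 6 of 7 were tested: 4 rose and 2 fell with the inhibitor (median 0.25), 0 were called with 5-azacitidine by edgeR (4 at an unadjusted p under 0.05; median 0.15) or limma-voom and 2 were higher by DESeq2, and 3 rose and 2 fell with both (median 0.38). DUSP1, a phosphatase of MAP kinases, rose by 1.27 ± 0.15 with the inhibitor (adjusted p = 4.83e-08), and NR3C1, the receptor itself, fell by 0.38 in log2 terms (adjusted p = 1.20e-05).

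KLF10 and KLF11, the TGF-beta-inducible early genes, which repress through SIN3A, moved in opposite directions. KLF10 (ENSG00000155090, chromosome 8, 102648784 to 102655725, minus strand) was at 25.1, 24.4 and 20.8 CPM in vehicle and 39.7, 39.5 and 41.2 CPM with the inhibitor. It was at 25.7, 21.9 and 19.8 CPM with 5-azacitidine and 45.7, 41.7 and 42.1 CPM with both drugs. The libraries with and without the inhibitor did not overlap, and those of 5-azacitidine fell among those of vehicle or just beside them. The mean was 1.71-fold higher with the inhibitor (0.78 ± 0.08, adjusted p = 9.65e-09) and 1.84-fold higher with both (0.88 ± 0.08, adjusted p = 5.52e-10). KLF10 shares 5.71% of its exonic bases with an antisense gene, ENSG00000283959, which went from 49 to 68 counts in vehicle to 150 to 167 counts with the inhibitor. The counting did not use strand, so reads in the shared bases cannot be told apart, while KLF10 itself went from 736 to 911 counts to 1433 to 1496.

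KLF11 (ENSG00000172059, chromosome 2, 10042849 to 10054836, plus strand) was at 13.1, 12.1 and 11.6 CPM in vehicle, 12.5, 12.3 and 12.5 CPM with 5-azacitidine, 7.17, 7.54 and 6.69 CPM with the inhibitor, and 6.60, 6.78 and 7.87 CPM with both. Both groups with the inhibitor lay wholly under both groups without it. The mean was 1.72-fold lower with the inhibitor (-0.78 ± 0.10, adjusted p = 1.37e-07) and 1.73-fold lower with both drugs (-0.79 ± 0.10, adjusted p = 7.52e-08), and it differed by 0.02 ± 0.09 between 5-azacitidine and vehicle (adjusted p = 0.933). KLF11 shares 16% of its exonic bases with 2 antisense genes, of which ENSG00000260077, the one with more than 1 count, had 36 to 58 counts in vehicle and 31 to 56 with the inhibitor.

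All 9 listed TGF-beta pathway genes were tested, 1 of them passing the filter only through the groups with the inhibitor. With the inhibitor 6 rose and 2 fell (median 0.20), with 5-azacitidine 1 rose and 1 fell (median 0.15), and with both 5 rose and 3 fell (median 0.24). SMAD7, the inhibitory SMAD, rose by 1.57 ± 0.15 with the inhibitor (adjusted p = 9.34e-10) from a mean of 2.44 to 7.26 CPM.

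KLF13, a factor first known for late activation of the chemokine gene CCL5 in T cells (ENSG00000169926, chromosome 15, 31326835 to 31435665, plus strand), was the most highly counted member and changed least among the called ones. Its levels were 160.6, 164.2 and 157.7 CPM in vehicle, 178.1, 173.1 and 173.3 CPM with the inhibitor, 150.2, 152.6 and 156.6 CPM under 5-azacitidine, and 183.7, 171.1 and 170.7 CPM with both. The inhibitor libraries all lay above vehicle, and the 5-azacitidine libraries all lay just under it. The log2 difference was 0.12 ± 0.05 with the inhibitor (adjusted p = 0.0429) and 0.12 ± 0.05 with both (adjusted p = 0.0344). The first call was kept in 15 of 25 settings. It was lost when any 1 vehicle or inhibitor library, or 5-azacitidine replicate 2 or 3, was left out, with adjusted p from 0.0538 to 0.142. The call with both drugs was kept in 18 of 25 and lost without vehicle replicate 1 or 3, inhibitor replicate 2 or 3, or combination replicate 1, with adjusted p from 0.0505 to 0.166.

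KLF6, a growth-restraining factor that activates CDKN1A (ENSG00000067082, chromosome 10, 3775996 to 3785281, minus strand), was called in the combination group. It was at 31.4, 28.3 and 26.1 CPM in vehicle, 30.3, 22.4 and 19.5 CPM with the inhibitor, 30.5, 28.6 and 26.3 CPM under 5-azacitidine, and 24.9, 20.2 and 19.0 CPM with both. Inhibitor replicate 1 lay among the vehicle libraries, apart from the other two, while all combination libraries lay under all vehicle libraries. The difference was -0.25 ± 0.11 with the inhibitor (adjusted p = 0.0707) and KLF6 fell by 0.42 on the log2 scale with both drugs (SE 0.11, adjusted p = 0.00269). With the inhibitor it passed in 5 of 25 settings, among them no filter (adjusted p = 0.00821), without vehicle replicate 3 (adjusted p = 0.0431) and without inhibitor replicate 1 (-0.45, adjusted p = 0.00101). KLF6 was lower with both drugs than with 5-azacitidine alone (-0.41 ± 0.11, adjusted p = 0.00339), a call that was lost without the 2 libraries of high mitochondrial share (-0.27, adjusted p = 0.103).

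Of the 6 listed cell-cycle targets of KLF4 and KLF6, 3 rose and 2 fell with the inhibitor (median 1.07), 2 rose with 5-azacitidine (CDKN1A by 1.57 ± 0.17 and CDKN1B by 0.27 ± 0.06; median 0.60), and 4 rose and 2 fell with both (median 1.73). CDKN1A, the cyclin-dependent kinase inhibitor p21, rose by 5.08 ± 0.12 with the inhibitor (adjusted p = 7.00e-22), from a mean of 0.995 to 33.9 CPM. CDKN1C and CCND1 passed the filter only through the groups with the inhibitor. CCNE1, cyclin E1, fell by 0.81 in log2 terms (adjusted p = 8.44e-10). KLF4, a factor of quiescence and of reprogramming, was listed at 0 in all 12 libraries, where 3 counts equal 0.0812 to 0.0857 CPM. KLF7, best known in neurons, had 0 to 6 counts in vehicle, 2 in each inhibitor and each combination library and 0 to 2 with 5-azacitidine. Neither passed the filter.

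KLF15, an effector of glucocorticoids and fasting in liver and muscle (ENSG00000163884, chromosome 3, 126342635 to 126357408, minus strand), shares no exonic base with another gene. It was at 4.58, 5.94 and 5.39 CPM in vehicle (5.30 ± 0.685 SD, n = 3), from 166, 218 and 191 counts. It was at 2.22, 1.90 and 2.62 CPM with the inhibitor, 2.77, 2.48 and 3.80 CPM under 5-azacitidine, and 2.06, 1.46 and 1.99 CPM with both. All 9 drug-treated libraries lay under all vehicle libraries, and the inhibitor overlapped with both other drug groups. Its mean against vehicle was 2.36-fold lower with the inhibitor (-1.24 ± 0.17), 1.76-fold lower with 5-azacitidine (-0.81 ± 0.17) and 2.89-fold lower with both (-1.53 ± 0.18). Without 5-azacitidine replicate 3 the second value was -1.01.

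The comparisons between drug groups were not those KLF15 was chosen on. They share libraries with them, so their p-values are not independent of that choice. Both drugs gave a level under that of 5-azacitidine alone (-0.72 ± 0.19, edgeR adjusted p = 0.00216). The call was made in 24 of 24 settings, which reuse the same libraries. Both drugs against the inhibitor alone gave -0.29 ± 0.20 (adjusted p = 0.444), with overlapping libraries. Of the 6 listed metabolic targets of KLF15, 5 were tested: 2 rose with the inhibitor (median 0.15) and with both drugs (median 0.11), and 0 were called with 5-azacitidine by edgeR (0 also at an unadjusted p under 0.05), DESeq2 or limma-voom (median -0.05). TAT, tyrosine aminotransferase, had 0 to 1 count in vehicle, 23 to 40 with the inhibitor and 30 to 33 with both. It passed the filter only through those 2 groups, so that its rise was a condition of its being tested. SLC2A4, the insulin-regulated glucose transporter, rose by 0.93 ± 0.34 with the inhibitor (adjusted p = 0.0234), a call lost without vehicle replicate 3 (adjusted p = 0.142) or inhibitor replicate 3 (adjusted p = 0.155). With both drugs it rose by 1.32 ± 0.33 (adjusted p = 0.00117).

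The genes whose profile was most like that of KLF15 were found by the root-mean-square difference of log2 CPM, each gene set to its own vehicle mean, over the 12 libraries and 17868 other tested genes. Genes without a symbol were passed over. The nearest with a symbol were TERT (0.203), UBASH3B (0.305), MVP-DT (0.329), GRIN3B (0.336) and ATP9B (0.338). TERT, the catalytic subunit of telomerase, had means of 114.3 ± 4.27 CPM in vehicle, 51.5 ± 0.841 with the inhibitor, 75.5 ± 2.84 under 5-azacitidine and 39.2 ± 5.41 with both (SD, n = 3). UBASH3B, a phosphatase that restrains receptor signalling, had means of 59.3 ± 1.88, 29.7 ± 1.85, 42.6 ± 2.68 and 23.8 ± 1.24 CPM in the same order. The nearest gene of the family was KLF11 at 0.642, in place 425 among the tested genes, while KLF2 (2.73) and KLF3 (2.80) were near the far end. Likeness here is a description of 12 libraries that share their groups.

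**Figure D2:**
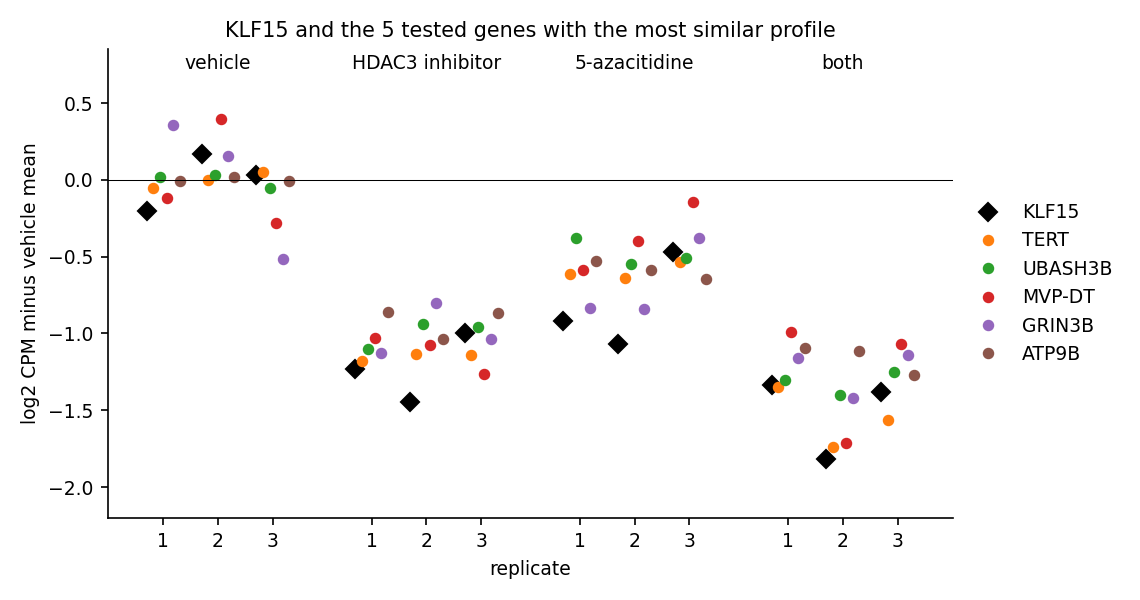
Log2 CPM minus each gene's vehicle mean (vertical axis) for KLF15 (black diamonds) and 5 tested genes (circles), by library (horizontal axis, replicates of each group). The 5 are those with the most similar profile among genes with a symbol. All 6 genes lie under 0 in the 9 drug-treated libraries, and TERT differs from KLF15 by 0.203 (root mean square).

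**Figure D3:**
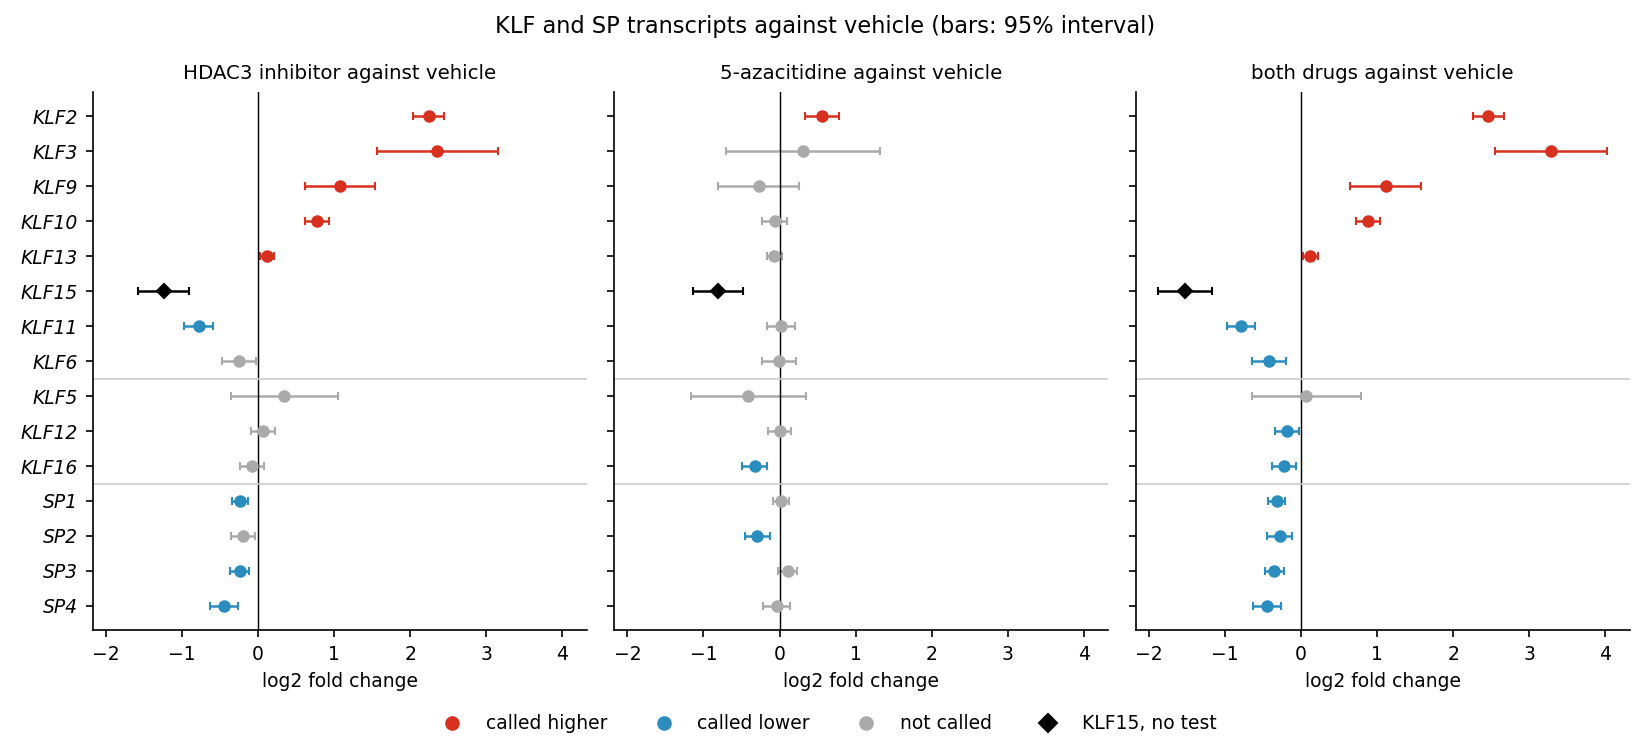
Log2 fold change against vehicle (horizontal axes, bars are 95% intervals) of the KLF members, other tested KLF genes and SP genes. Red and blue mark genes called higher and lower, grey marks genes not called, and the black diamond is KLF15, which has no test: with 5-azacitidine KLF2 is the called member, at 0.56.

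Across the members, 8 of 10 passed the filter and 7 had a test against vehicle. KLF15, which passed but had no test, is outside the counts against vehicle. It was lower with the inhibitor (-1.24), 5-azacitidine (-0.81) and both drugs (-1.53). With the inhibitor 5 were called higher and 1 lower at an edgeR adjusted p under 0.05, where 26.4% of the 17869 tested genes were called higher and 24.9% lower (51.3% either way). With 5-azacitidine 1 of 7 was higher, KLF2, against a background of 4.31%, and 0 were lower against 4.75% (9.06% either way, or 1619 genes, which became 1017 without vehicle replicate 1 and 1056 without 5-azacitidine replicate 2). That count of 0 was also 0 at an unadjusted p under 0.05, with DESeq2 and with limma-voom. With both drugs 5 were higher and 2 lower, where 29.6% and 27.5% of all tested genes were (57.1% either way). These shares include KLF3, whose passing of the filter fixed its direction. The median log2 difference of the 8 that passed, KLF15 included, was 0.45, -0.03 and 0.50 in these 3 comparisons, beside 0.0006, 0.0021 and 0.0079 over all tested genes.

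The inhibitor on top of 5-azacitidine was compared with 5-azacitidine alone. KLF2, KLF3, KLF9, KLF10 and KLF13 were higher with both drugs and KLF6, KLF11 and KLF15 lower. These were 8 of 8, where 53.8% of all tested genes were called (28.7% higher, 25.1% lower). The 8 include KLF3, whose passing of the filter fixed its direction, and KLF15, chosen for its lower level in the drug groups. Against the inhibitor alone, KLF3 was the 1 member called higher and 0 were lower, beside 4.51% of all genes called higher and 2.83% lower (7.34% either way, 1312 genes, and 690 to 1848 with 1 library left out). The count of 0 lower was also 0 at an unadjusted p under 0.05, with DESeq2 and with limma-voom. These comparisons share libraries with those against vehicle.

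Whether both drugs together differed from the sum of the single-drug log2 changes was tested as an interaction. Of the 8 members 0 were called by edgeR, DESeq2 or limma-voom, and 1, KLF2, had an unadjusted edgeR p under 0.05, where 0.716% (0.263% higher, 0.453% lower) of all tested genes were called (128 genes, and 35 to 689 with 1 library left out). KLF2 was at 2.46 with both drugs beside a sum of 2.81 (interaction -0.35 ± 0.15, adjusted p = 0.300). KLF15 was at -1.53 beside a sum of -2.05 (0.53 ± 0.26), a description since it rests on the values KLF15 was chosen on. KLF3 had the widest error, with an interaction of 0.61 ± 0.60 and a 95% interval from -0.56 to 1.78. For KLF11 the interval ran from -0.30 to 0.23 and for KLF13 from -0.06 to 0.21.

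**Figure D4:**
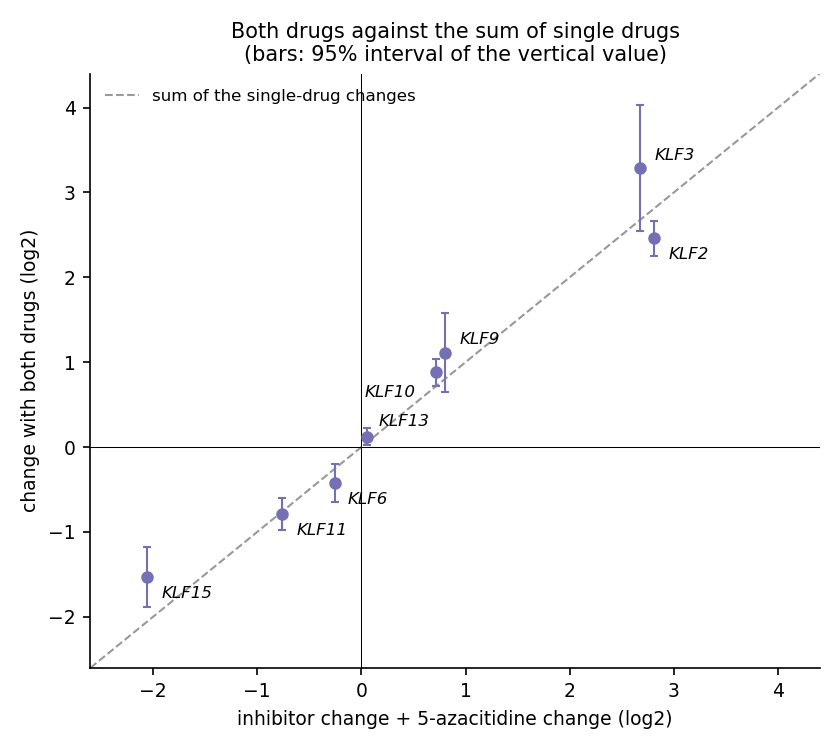
Log2 change with both drugs (vertical axis, bars are its 95% interval) against the sum of the 2 single-drug changes (horizontal axis) for the 8 members that passed the filter; the dashed line marks equality. KLF15 (-1.53 against -2.05) lies above the line and KLF2 (2.46 against 2.81) under it, and 0 of the 8 interactions were called.

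Levels of different genes are compared as CPM per kb of exon. In vehicle the order was KLF13 (17.1), KLF16 (16.8), KLF10 (6.13), KLF6 (4.66), KLF11 (2.67), KLF12 (2.23), KLF15 (1.89), KLF2 (1.44), KLF9 (0.155), KLF5 (0.153), KLF1 (0.0227), KLF3 (0.0218) and KLF7 (0.00587). Libraries overlapped between KLF13 and KLF16, between KLF12 and KLF15, between KLF15 and KLF2, between KLF9 and KLF5 and between KLF1 and KLF3, so those neighbours are not ordered. With the inhibitor KLF2 stood in place 4 at 6.83 CPM per kb, above KLF6 at 3.92 without overlap, and KLF15 in place 8 at 0.797. With 5-azacitidine KLF2 (2.13) stood above KLF15 (1.07) without overlap. With both drugs KLF2 was at 7.92, KLF10 at 11.3 and KLF15 at 0.652.

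The 18 KLF genes summed to 53.2 ± 0.713 CPM per kb in vehicle, 61.1 ± 1.77 with the inhibitor, 48.6 ± 0.738 under 5-azacitidine and 60.6 ± 4.01 with both (SD, n = 3). The 3 inhibitor libraries lay above and the 3 5-azacitidine libraries under all vehicle libraries. KLF2 made up 2.70% of the sum in vehicle, 11.2% with the inhibitor, 4.38% under 5-azacitidine and 13.1% with both. KLF10 made up 11.5%, 17.2%, 12.1% and 18.7% in the same order, and KLF15 3.55%, 1.30%, 2.20% and 1.08%. KLF13 stayed between 30.4% and 33.4%.

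**Figure D5:**
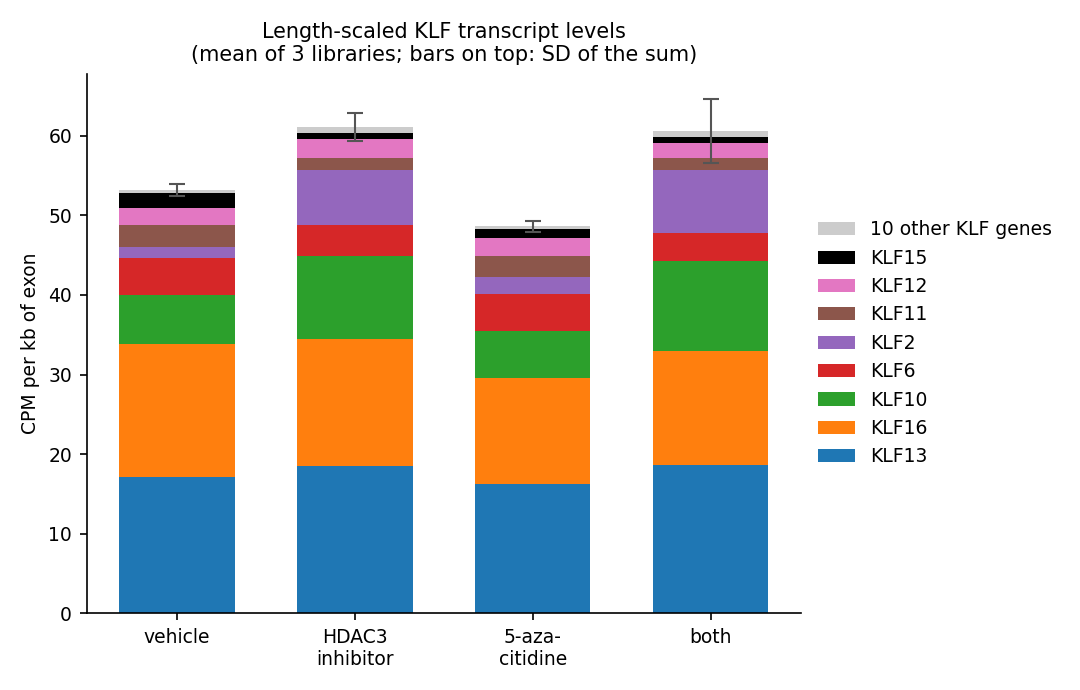
Stacked mean CPM per kb of exon (vertical axis, from 0) of the KLF genes in each group, with the SD of the sum over 3 libraries as the error bar. The KLF2 segment is 1.44 in vehicle and 6.83 with the inhibitor, while the KLF15 segment is 1.89 and 0.797.

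The other KLF and SP genes give the setting. Of 8 KLF genes outside the members, 3 were tested: KLF5, a factor of proliferating epithelia, was called in no comparison. KLF16 fell by 0.33 on the log2 scale with 5-azacitidine (adjusted p = 0.0107), a call lost without vehicle replicate 3 (adjusted p = 0.0708) or 5-azacitidine replicate 1 (adjusted p = 0.0825). With both drugs KLF16 was also called lower (-0.22 ± 0.08), a call kept in 20 of 25 settings. KLF12 was at the threshold with both drugs (-0.18 ± 0.08, adjusted p = 0.0476) and kept that call in 7 of 25 settings. It was also called lower with both drugs than with 5-azacitidine alone, kept in 9 of 25 settings. Against the inhibitor alone KLF12 was called lower too, kept in 14 of 25. Of 9 SP genes, the related factors that bind GC boxes, 5 were tested. With the inhibitor 3 of them fell (median of the 5 -0.24): SP1 (-0.23 ± 0.05, adjusted p = 0.000870), SP3 (-0.24 ± 0.06, adjusted p = 0.00262) and SP4 (-0.45 ± 0.09, adjusted p = 0.000215). With 5-azacitidine SP2 was called lower (-0.29 ± 0.08, adjusted p = 0.0264), a call lost without any one vehicle library or 5-azacitidine replicate 2 (adjusted p from 0.0585 to 0.152). With both drugs SP1, SP2, SP3 and SP4 fell (median -0.35), and each call was made in 25 of 25 settings.

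Of 10 listed cofactors of KLF proteins, 1 rose and 7 fell with the inhibitor (median -0.23), 2 fell with 5-azacitidine (median -0.06), and 1 rose and 6 fell with both (median -0.30). Of all tested genes, 24.9% were called lower with the inhibitor, 4.75% with 5-azacitidine and 27.5% with both. The 1 that rose, CTBP2, a corepressor named after its values were seen, had 3 to 7 counts in vehicle and passed the filter only through the groups with the inhibitor. SAP30, a subunit of the SIN3 complex, fell by 0.60 on the log2 scale with the inhibitor (adjusted p = 3.59e-09), and CREBBP, an acetyltransferase, fell by 0.61 (adjusted p = 3.17e-07). Of the 4 listed ubiquitin ligases 3 fell with the inhibitor (median -0.28), 0 were called with 5-azacitidine by edgeR (0 also at an unadjusted p under 0.05), DESeq2 or limma-voom (median -0.03), and 4 fell with both (median -0.34). SMURF2 fell by 0.54 with the inhibitor (adjusted p = 3.17e-07) and SMURF1 fell by 0.34 (adjusted p = 0.00185). Protein was not measured.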

How the data were processed

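The authors deposited one table of gene counts, made with featureCounts 2.1.1 on Ensembl release 114 of GRCh38, without strand and with multi-mapping reads split into fractions, per the file headers, so its values are expected counts (96.9% of values and 99.2% of member values are whole within 1e-06). The submitters' processing notes name cutadapt 5.1 and STAR 2.7.11b, without their role. The table's header line names 16 libraries, but its columns hold counts of 12, all of which are analysed here. The exonic length beside each gene, another deposited value per the file headers, gave CPM per kb. Even values made up 62.8% of values from 1 to 4 and 51.7% of those from 101 to 1000, so both reads of some pairs may have been counted, which overstates the precision of low values. Floors cover counting error only.

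Values were rounded and fitted with edgeR 4.0.16 (R 4.3.3): TMM scaling, filterByExpr (17869 genes, 99.9% of counts), the quasi-likelihood test on all 12 libraries in one fit, two-sided, Benjamini-Hochberg adjustment over all tested genes, called at an adjusted p under 0.05. The biological coefficient of variation was 6.05%. The script was checked on simulated data. Errors beside log2 differences are SE. The 95% intervals are the difference ± 1.96 SE, a normal multiplier, and can be narrower than the quasi-likelihood test implies. Members and gene lists were chosen with earlier results of these data known, so counts over a list are descriptions. Within each list the 2 genes of smallest adjusted p are named, except a few that are not reported here, beside others chosen after their values were seen (MAPK7, ITGB7 and the genes called with 5-azacitidine). Alternatives were other scalings, filters, DESeq2 1.42.0, limma-voom (limma 3.58.1), fits on the compared groups, replicate blocks and each library left out. Libraries of one group differed by more than sampling noise in every pair. The chi-square of their counts per degree of freedom was 3.58 to 7.09 in vehicle and inhibitor pairs and 10.2 to 16.7 in combination pairs. It was 29.3 and 26.3 for 5-azacitidine replicate 1 against replicates 2 and 3, and 4.24 between replicates 2 and 3. Replicate 1 of 5-azacitidine thus stood apart over all genes. Promoter sequences come from RefSeq (GRCh38.p14).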

Additional observations from a re-analysis of the deposited data

How the results depend on the processing

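Every setting was tried on every comparison it allowed. In the 25 alternatives the member values kept their side of the threshold and their direction in 1097 of the comparisons with the reported fit; 31 changed sign, 35 lost and 5 gained the call, and 1 moved (KLF15 with 5-azacitidine, -1.01 without replicate 3 of that group). Other named genes kept direction and call in 3671 comparisons and lost it in 206. All changes of sign were of values not called in the reported fit. KLF6 with 5-azacitidine became 0.0030 with DESeq2 size factors, 0.0036 with the stricter filter, 0.0035 with DESeq2, and -0.0685 to 0.0659 with 1 library left out. KLF13 with both drugs against the inhibitor became -0.0047 with DESeq2 size factors or DESeq2, -0.0053 with library totals, -0.0050 with no filter, -0.015 with the 2 groups alone, -0.0017 without mitochondrially encoded genes (chosen after seeing the data, as were halved counts) and -0.0316 to 0.0214 with 1 library left out. In that comparison KLF9 became -0.015 with the block by library name number, -0.0295 without the 2 libraries of high mitochondrial share, and -0.0498 to 0.166 with 1 library left out, KLF11 became 0.011 with that block and ran from -0.0921 to 0.0384, and KLF6 from -0.301 to 0.0277. Left-out libraries gave -0.166 to 0.0217 for KLF10 and -0.0156 to 0.0688 for KLF11 with 5-azacitidine, and -0.113 to 0.0176 for KLF11 and -0.294 to 0.0346 for KLF6 in the interaction. The cause was not tested.

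Members called higher with both drugs against the inhibitor went from 1 to 0 with DESeq2 size factors, library totals, no filter, the stricter filter (KLF3 and KLF9 not tested), DESeq2, the 2 groups alone, and without the 2 libraries, and ran from 0 to 1 with 1 library left out. With the stricter filter 3 members were higher in place of 5 with the inhibitor, with both drugs and against 5-azacitidine, for the same reason. Members called lower with the inhibitor became 2 with no filter and ran from 1 to 2 with 1 library left out. Genes called in the interaction were 314 with no filter, 204 with the stricter filter, 388 with DESeq2 and 35 to 689 with 1 library left out. Left-out libraries gave 1017 to 1980 genes called with 5-azacitidine and 690 to 1848 with both drugs against the inhibitor.

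The labels do not say if replicate numbers pair the libraries. Over 18 pairs of the same number in different groups, deviations of all 17869 tested genes correlated at -0.059 to 0.066. Such a correlation cannot exclude a pairing that acts on some genes. KLF6 was highest in replicate 1 and lowest in replicate 3 of every group. With a replicate block, members called lower with the inhibitor became 2, by KLF6 (-0.26, adjusted p = 0.00674), and members called higher with both drugs against the inhibitor became 0. With a block by the number in the library name, the former became 2, again by KLF6 (-0.26, adjusted p = 0.00523), and the interaction called 227 genes.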

Other observations

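The antisense gene that overlaps KLF10, ENSG00000283959, rose by 1.45 on the log2 scale with the inhibitor (adjusted p = 3.54e-08) and by 1.47 with both drugs (adjusted p = 1.84e-08), and differed by 0.25 with 5-azacitidine (adjusted p = 0.463). It had 150 to 167 counts with the inhibitor and 149 to 165 with both. The antisense gene of KLF11 with counts, ENSG00000260077, differed by -0.17 with the inhibitor (adjusted p = 0.616) and by 0.19 with both (adjusted p = 0.526). Of the KLF and SP genes in the table, KLF4, KLF8, KLF14, KLF18, SP5, SP8 and SP9, 7 in all, had no count in any of the 12 libraries.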
